A study of Mus musculus with 34 samples.

Results

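The regulators described here are 10 genes of the integrated stress response, chosen by name: Atf4, Ddit3, Atf3, Atf5, Nupr1, Trib3, Cebpb, Cebpg, Ppp1r15a and Chac1. All 10 were found among the 55487 gene IDs of both deposited tables. Polyadenylated RNA was sequenced from whole liver of male mice 3 months of age. In the first table, 5 libraries came from PiZ mice that carry a p50 knockout (PiZ p50KO) and received the vehicle PBS, 5 from PiZ mice given PBS, 6 from wild-type (WT) mice 2 hours after TNFa, and 6 from WT mice given PBS. In the second table, 6 libraries came from WT mice 24 hours after tunicamycin and 6 from WT mice given its vehicle DMSO. The PiZ transgene expresses human alpha-1 antitrypsin in its Z form, a protein that polymerizes inside the endoplasmic reticulum (ER) of hepatocytes. p50 is the NF-kB subunit made from Nfkb1, TNFa is a cytokine that activates NF-kB, and tunicamycin blocks N-linked glycosylation in the ER. The labels do not state the promoter of the PiZ transgene, the part of Nfkb1 that was deleted, or whether the controls were littermates. Each table is its own batch by the labels, and levels were therefore never tested between the tables.

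The integrated stress response begins when a kinase phosphorylates eIF2 alpha, which lowers protein synthesis in general and raises translation of a few mRNAs whose leaders hold upstream open reading frames. Atf4 mRNA is the best known of these. The ATF4 protein then switches on genes for amino acid supply and further regulators such as CHOP, the product of Ddit3. Of the eIF2 kinases, PERK senses ER stress, so liver cells with misfolded secretory proteins can enter the response from the ER. Protein, phosphorylation and translation were not measured here. Because whole liver was sequenced, fewer cells of a type and less RNA per cell cannot be told apart.

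The members fall into 3 kinds by role. Transcription factors of the basic leucine zipper (bZIP) type are Atf4, Ddit3, Atf3, Atf5, Cebpb and Cebpg. Nupr1 encodes a small chromatin-associated stress protein, and Trib3 a pseudokinase that binds ATF4 and CHOP. Ppp1r15a encodes GADD34, the inducible subunit that directs a phosphatase to eIF2 alpha and so ends the response, and Chac1 encodes an enzyme that degrades glutathione.

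On GRCm38, Atf4 lies at chr15:80255184-80257541, Ddit3 at chr10:127290774-127296288, Atf3 at chr1:191170296-191218039 and Trib3 at chr2:152337422-152344032. Cebpb lies at chr2:167688915-167690418 and Chac1 at chr2:119351229-119354381. The 4 members on chromosome 7 are Cebpg at chr7:35046422-35056573, Atf5 at chr7:44812256-44816658, Ppp1r15a at chr7:45522916-45526268 and Nupr1 at chr7:126623249-126630861. In the GENCODE M21 annotation, exons of Ddit3, Atf5, Cebpb, Cebpg and Ppp1r15a overlap exons of a gene on the opposite strand, and the sources used here do not state whether counting used strand. Ddit3 also has a second gene ID inside it, for a transcript of 105 bases, which had 0 reads in every library, so the values below are those of the longer gene. Upstream AUGs, the starts of possible upstream reading frames, were present in the annotated leaders of 7 of 10 members, against 51.8% of 17066 principal transcripts read. At least 2 were present in 4 members, namely Atf4 with 3, Ddit3 with 2, Atf5 with 2 and Ppp1r15a with 7, against 32.3% of those transcripts. The median number of upstream AUGs was 1 in the members and 1 in all transcripts read. The median leader was longer in the members, at 247 bases against 161 in all transcripts read.

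The promoter sequences are shown because several members are targets of ATF4 themselves. In RefSeq promoter windows (GRCm38.p6, 250 bases before to 50 after a start site), the core of the ATF4-C/EBP composite element, TGATGNAA on either strand, was present in 4 of 10 members and in 3.97% of 32851 windows. The members were Atf3, Nupr1, Trib3 and Chac1, with the first base of the match at -110, -110, 15 and -193 from the start site, and each match read on the strand opposite to the gene. The full cyclic AMP response element, TGACGTCA, was present in Ppp1r15a alone among the members, at -12, and in 1.79% of windows. The windows below are written on the strand of the gene, with the matched letters in capitals, and lie at chr1:191183410-191183469 (Atf3, minus), chr7:126625547-126625606 (Nupr1, minus), chr2:152344028-152344057 (Trib3, minus, after the start site and 30 bases long), chr2:119351023-119351082 (Chac1, plus) and chr7:45526269-45526328 (Ppp1r15a, minus).
Atf3: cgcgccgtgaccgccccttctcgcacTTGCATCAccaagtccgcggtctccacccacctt
Nupr1: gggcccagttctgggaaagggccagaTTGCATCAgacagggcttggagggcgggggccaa
Trib3: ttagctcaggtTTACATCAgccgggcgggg
Chac1: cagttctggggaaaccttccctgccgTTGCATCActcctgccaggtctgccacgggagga
Ppp1r15a: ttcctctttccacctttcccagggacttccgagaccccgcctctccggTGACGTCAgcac
The shorter letters TGACG, which are also part of the full element, were present in 6 of 10 members and 20.8% of windows. The ER stress element (CCAAT and CCACG parted by 9 bases) was present in 0 members and 0.119% of windows. A core NF-kB motif, GGGNNNNNCC, was present in 7 members and 50.8% of windows. The 10 members have 11 windows, and a member was counted if any of its windows held a match, whereas the shares are of single windows. A match is a description of the letters and not of binding.

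Values are log2 CPM as deposited, where CPM is a gene's read count scaled to the size of its library. Depth was 35.5 to 54.0 M reads in 21 libraries of the first table and 34.3 to 47.8 M in the second. WT PBS 2 stood apart: it held 10.2 M reads, 32360 genes above 1 CPM against 11683 to 13202 in the other libraries of its table, and Alb, the main hepatocyte transcript, at 12.22 against 15.43 to 16.49. It was left out of every comparison unless stated, and its own values were 5.26 for Atf4, 3.64 for Ddit3, 2.38 for Atf3, 5.72 for Atf5, 1.51 for Nupr1, 3.58 for Trib3, 5.62 for Cebpb, 3.94 for Cebpg, 4.44 for Ppp1r15a and 2.99 for Chac1. Nfkb1, the knocked-out gene, was at 4.51, 4.86, 3.31, 3.74 and 3.37 in the libraries labelled PiZ p50KO 1 to 5, against 5.58, 5.45, 5.00, 4.62 and 5.12 in PiZ 1 to 5. The library labelled PiZ p50KO 2 lay inside the PiZ range, and PiZ p50KO 1 lay between the ranges of PiZ and WT PBS. WT TNFa 4 had Nfkb1 at 4.77, while WT TNFa 1, 2, 3, 5 and 6 had 6.57 to 6.95 and the WT PBS libraries 3.92 to 4.34. The labels number the libraries of a group as separate samples and say nothing of how they were prepared, so p-values measure the spread between these libraries, which may be partly technical.

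**Figure D1:**
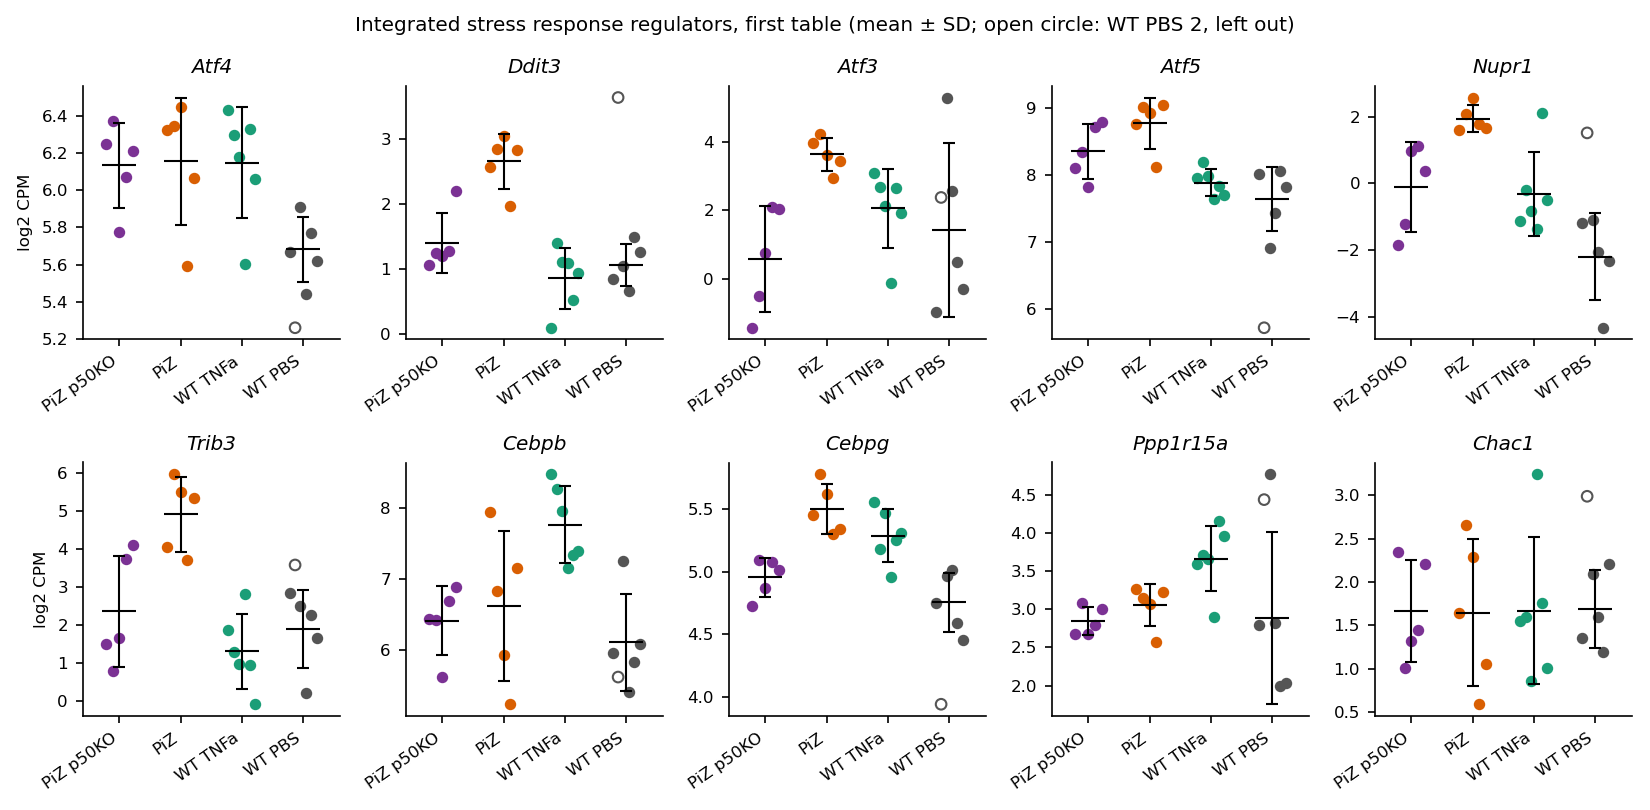
Deposited log2 CPM (vertical axes, scales differ) of the 10 regulators in each library of the first table, by group, with mean ± SD as black bars; the open circle is WT PBS 2, which is left out of the mean. In Ddit3 the 5 PiZ libraries sit between 1.97 and 3.04, above the 5 WT PBS libraries, while in Chac1 the groups overlap.

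In PiZ against WT PBS, 7 of 10 regulators rose and none fell (adjusted p under 0.05, limma), where 45.6% of the 13285 genes tested rose and 6.19% fell. Nupr1, Trib3, Atf3 and Ddit3 rose the most, Atf5, Cebpg and Atf4 rose less, and Cebpb, Ppp1r15a and Chac1 did not pass the test. The median log2 fold change of the members was 0.93, against 0.40 over all genes tested. With every library shifted to the same median, 4 members rose (Nupr1 3.64, Trib3 2.54, Ddit3 1.10, Atf5 0.64) and all genes split into 2315 higher and 2990 lower, against 6064 and 822 as deposited. Keeping WT PBS 2 left 5 members called, without Ddit3 (1.16, adjusted p = 0.0587) and Atf3 (2.05, adjusted p = 0.116), where 15.1% of genes rose.

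Among the bZIP factors, Atf4 was at 6.32, 6.35, 6.45, 5.59 and 6.07 in PiZ 1 to 5, against 5.67, 5.91, 5.44, 5.77 and 5.62 in WT PBS 1, 3, 4, 5 and 6. PiZ 4 lay within the WT PBS range and the other 4 PiZ libraries above it. The log2 fold change was 0.47 ± 0.17 (SE, n = 5 each, adjusted p = 0.0210), close to the all-gene median, and it was -0.01 (adjusted p = 0.943) with libraries shifted to the same median. The call was also lost without PiZ 1, 2 or 3 or WT PBS 4 in turn, at log2 fold changes of 0.43, 0.43, 0.40 and 0.41.

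Ddit3, whose protein CHOP is linked to cell death under ER stress, was at 2.57, 2.85, 3.04, 1.97 and 2.84 in PiZ 1 to 5, against 0.85, 1.06, 0.67, 1.49 and 1.27 in WT PBS 1, 3, 4, 5 and 6. The groups did not overlap. It rose by 1.59 ± 0.26 on the log2 scale (SE, n = 5 each, adjusted p = 4.71e-05). Atf5, a factor known for the mitochondrial stress response, was at 8.76, 9.02, 8.94, 8.12 and 9.05 in PiZ 1 to 5, against 8.02, 6.92, 7.43, 8.07 and 7.82 in WT PBS 1, 3, 4, 5 and 6. PiZ 4 was the lowest PiZ library and still lay above all 5 WT PBS libraries. Atf5 rose by 1.13 ± 0.22 (SE, adjusted p = 0.000267).

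Atf3, an early stress factor that can repress or activate its targets, was at 3.95, 4.22, 3.61, 2.94 and 3.44 in PiZ 1 to 5, against -0.97, 5.29, 2.56, 0.51 and -0.29 in WT PBS 1, 3, 4, 5 and 6. The PiZ libraries were close together, whereas WT PBS 3 exceeded all of them. Atf3 rose by 2.21 ± 0.90 (SE, adjusted p = 0.0457), and this call was lost without any 1 of PiZ 1, 2, 3 or 5 or of WT PBS 1, 5 or 6, at log2 fold changes of 1.62 to 2.26. WT PBS 3 was also the highest WT PBS library in Ppp1r15a and Cebpb and in Jun, a bZIP partner of Atf3, which was at 6.82 there against 3.27 to 4.52 in WT PBS 1, 4, 5 and 6.

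Cebpg, a C/EBP without an activation domain that pairs with ATF4, was at 5.45, 5.78, 5.62, 5.30 and 5.34 in PiZ 1 to 5, against 4.75, 4.97, 5.01, 4.59 and 4.46 in WT PBS 1, 3, 4, 5 and 6. The groups did not overlap and the gene rose by 0.74 ± 0.13 (SE, adjusted p = 0.000106), but the call was lost at 0.25 with libraries shifted to the same median (adjusted p = 0.101). Cebpb, a factor of the acute-phase response, was at 7.95, 6.84, 5.94, 5.24 and 7.15 in PiZ 1 to 5, against 5.97, 7.25, 5.41, 5.84 and 6.09 in WT PBS 1, 3, 4, 5 and 6. These ranges overlapped and the log2 fold change of 0.51 ± 0.41 (SE) did not pass the test (adjusted p = 0.307).

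Nupr1 was at 1.59, 2.09, 2.57, 1.76 and 1.65 in PiZ 1 to 5, against -1.19, -1.10, -2.06, -4.32 and -2.31 in WT PBS 1, 3, 4, 5 and 6. It was a rare transcript in WT PBS, at 2 to 23 reads a library, and held 120 to 288 reads in PiZ. It rose by 4.13 ± 0.67 (SE, n = 5 each, adjusted p = 4.04e-05), a value that rests on those few WT PBS reads. Trib3 was at 4.04, 5.98, 5.51, 3.70 and 5.35 in PiZ 1 to 5, against 2.84, 2.49, 0.21, 2.25 and 1.65 in WT PBS 1, 3, 4, 5 and 6. Every PiZ library exceeded every WT PBS library, and Trib3 rose by 3.03 ± 0.64 (SE, adjusted p = 0.000580).

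Of the genes that close the response or act at its end, Ppp1r15a was at 3.26, 3.15, 3.07, 2.58 and 3.23 in PiZ 1 to 5, against 2.80, 4.77, 2.82, 1.99 and 2.03 in WT PBS 1, 3, 4, 5 and 6. Its log2 fold change of 0.17 ± 0.36 (SE, adjusted p = 0.703) became 0.65 without WT PBS 3 (adjusted p = 0.0227) and -0.32 with libraries shifted to the same median (adjusted p = 0.488). Chac1 was at 1.65, 2.66, 2.29, 0.59 and 1.05 in PiZ 1 to 5, against 1.35, 2.09, 1.60, 1.19 and 2.20 in WT PBS 1, 3, 4, 5 and 6. The PiZ libraries lay on both sides of the WT PBS range, and the difference was -0.04 ± 0.42 (SE, adjusted p = 0.945).

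The wider pathway in PiZ was read from lists chosen with earlier results of these data known, beside the 45.6% of all genes that rose. Of 37 tested ATF4 and CHOP target genes, 27 rose and 0 fell, led by the cystine transporter Slc7a11 (log2 fold change 6.40 ± 0.89, SE), the asparagine synthetase Asns (4.99 ± 0.85) and the death receptor Tnfrsf10b (4.81 ± 0.67). Of 18 eIF2 kinases and other eIF2 control genes, 11 rose and 0 fell, led by Impact, an inhibitor of the kinase GCN2 (2.26 ± 0.15), the double-stranded RNA sensing kinase Eif2ak2 (1.32 ± 0.23) and Dnajc3, an ER co-chaperone (1.09 ± 0.15). The median of that list, 0.43, was close to the 0.40 of all genes. Of 16 genes of the IRE1 and ATF6 arms of the ER stress response, 13 rose and 0 fell, led by Derl3 (4.92 ± 0.64), Sdf2l1 (1.97 ± 0.35) and Creld2 (1.95 ± 0.47). Of 32 other bZIP factors, 17 rose and 3 fell, with Batf at 2.59 ± 0.46, Batf2 at 1.99 ± 0.48 and Mafk at 1.43 ± 0.23. With libraries shifted to the same median these counts became 16 higher and 4 lower for the ATF4 and CHOP targets, 4 and 6 for eIF2 control, 9 and 0 for the IRE1 and ATF6 arms, and 4 and 4 for the other bZIP factors. With WT PBS 2 kept, where 15.1% of all genes rose, 15 of the ATF4 and CHOP targets rose, as did 6 eIF2 control genes, 12 IRE1 and ATF6 arm genes and 7 other bZIP factors. Without PiZ 2, the eIF2 control genes that rose numbered 7 and the other bZIP factors 10. Over the fits without 1 library, all genes called, higher and lower together, numbered 5947 to 7311.

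Markers of other cell types differed between the same groups. The summed level of 10 of 10 macrophage genes was 732 to 1033 CPM in PiZ, against 194 to 244 CPM in WT PBS, and that of 6 of 6 stellate genes was 348 to 647 CPM in PiZ, against 72.2 to 102 CPM in WT PBS. The 5 of 5 cholangiocyte genes summed to 82.4 to 124 CPM in PiZ, against 23.3 to 26.9 CPM in WT PBS. The sum of the 7 hepatocyte genes in the table was 65517 to 94967 CPM in PiZ, against 85085 to 114280 CPM in WT PBS. All genes of these 4 lists that are in the table had reads in every one of these libraries. Endothelial genes summed to 229 to 287 CPM in PiZ, against 161 to 203 CPM in WT PBS. T and NK genes summed to 4.05 to 5.08 CPM in PiZ, against 1.03 to 2.04 CPM in WT PBS, where 6 to 7 of 8 had reads. The part of these markers in the results was not tested.

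**Figure D2:**
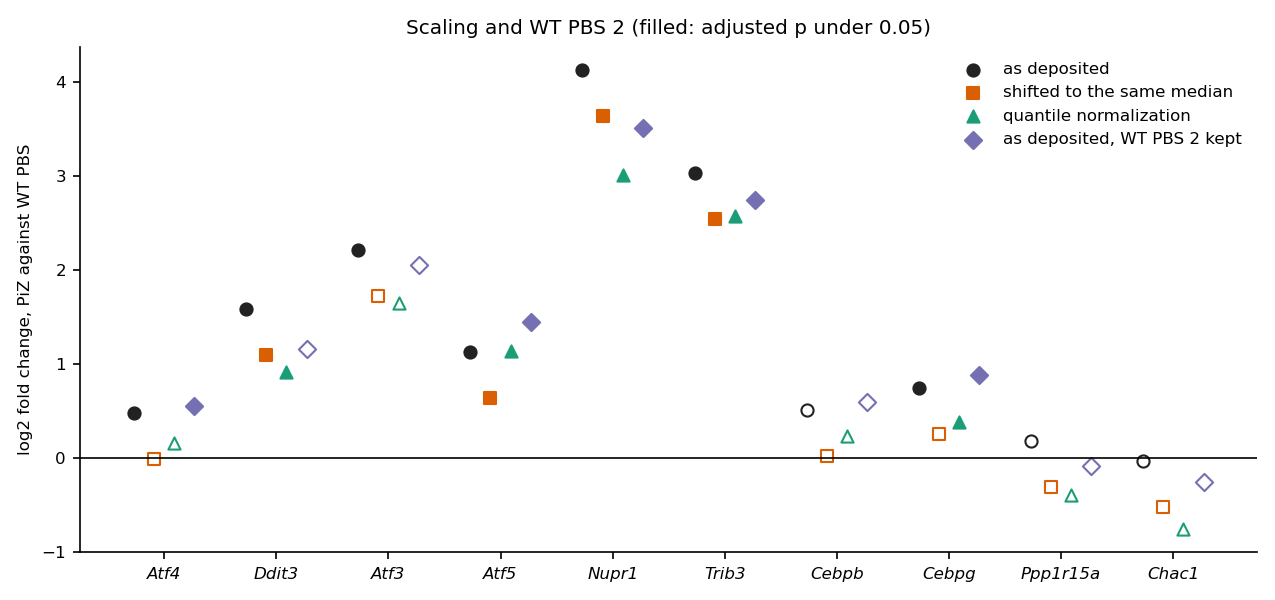
Log2 fold change of each regulator in PiZ against WT PBS (vertical axis) as deposited, with libraries shifted to the same median, after quantile normalization, and with WT PBS 2 kept; filled symbols have an adjusted p under 0.05. Nupr1, Trib3 and Atf5 are filled under all 4, whereas Atf4 drops from 0.47 to -0.01 with the shift.

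In PiZ p50KO against PiZ, 5 of 10 regulators fell and none rose, where 21.6% of the genes tested fell and 3.36% rose. Those that fell were Atf3, Trib3, Nupr1, Ddit3 and Cebpg, and Atf4 mRNA did not differ by more than the spread between libraries. The median log2 fold change of the members was -0.48, against -0.22 over all genes tested. This comparison shares the PiZ libraries with the one above. When WT PBS 2 was kept, the SE of Ddit3 was 0.43 in place of 0.26, and Trib3 alone was called lower (adjusted p = 0.0380), where 2.96% of genes fell, while a fit of only the PiZ p50KO and PiZ libraries called all 5. Without the libraries labelled PiZ p50KO 1 and 2 and without WT TNFa 4, Ddit3 (-1.09) and Cebpg (-0.51) remained below PiZ at an adjusted p of 0.0261 and 0.0235, and Atf3 (-2.01), Nupr1 (-1.10) and Trib3 (-1.75) did not pass. With libraries shifted to the same median, Ddit3, Atf3 and Trib3 fell, and all genes split into 1307 higher and 1210 lower, against 447 and 2866 as deposited.

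Ddit3 was at 1.07, 1.24, 1.20, 1.29 and 2.21 in the libraries labelled PiZ p50KO 1 to 5, against the 1.97 to 3.04 of PiZ. Only PiZ p50KO 5 reached the PiZ range. Ddit3 fell by 1.25 ± 0.26 on the log2 scale (SE, n = 5 each, adjusted p = 0.00178). Cebpg was at 4.73, 5.09, 4.87, 5.08 and 5.01 in PiZ p50KO 1 to 5, against 5.30 to 5.78 in PiZ. The groups did not overlap, and the gene fell by 0.54 ± 0.13 (SE, adjusted p = 0.00551).

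Atf3 was at -1.42, -0.49, 0.75, 2.10 and 2.03 in PiZ p50KO 1 to 5, against 2.94 to 4.22 in PiZ. All 5 lay below PiZ, over a range that was wider than in PiZ, and Atf3 fell by 3.04 ± 0.90 (SE, adjusted p = 0.0182); without PiZ p50KO 1 the fold change was -2.54 (adjusted p = 0.0656). Nupr1 was at -1.84, -1.22, 0.97, 1.13 and 0.38 in PiZ p50KO 1 to 5, against 1.59 to 2.57 in PiZ. The libraries labelled PiZ p50KO 1 and 2, those with the highest Nfkb1 of their group, were the lowest of it in Nupr1 and in Atf3. Nupr1 fell by 2.05 ± 0.67 (SE, adjusted p = 0.0310), and lost its call without PiZ p50KO 1 or 2 or without PiZ 2 or 3, at -1.61, -1.77, -2.01 and -1.89.

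Trib3 was at 1.51, 0.77, 1.66, 3.73 and 4.10 in PiZ p50KO 1 to 5, against 3.70 to 5.98 in PiZ. PiZ p50KO 4 and 5 overlapped with PiZ and the other 3 lay below it. Trib3 fell by 2.56 ± 0.64 (SE, adjusted p = 0.00663). Atf4 was at 6.25, 6.37, 5.77, 6.07 and 6.21 in PiZ p50KO 1 to 5, against 5.59 to 6.45 in PiZ. Its log2 fold change was -0.02 ± 0.17 (SE, adjusted p = 0.941), and 0.24 (adjusted p = 0.230) with libraries shifted to the same median.

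The other 4 members did not pass the test. Atf5 ranged from 7.82 to 8.80 in PiZ p50KO, against 8.12 to 9.05 in PiZ, with a log2 fold change of -0.42 ± 0.22 (SE, adjusted p = 0.176). It passed without PiZ 4 (-0.58, adjusted p = 0.0452) and was -0.28 without PiZ p50KO 3. Cebpb ranged from 5.62 to 6.89 in PiZ p50KO, against 5.24 to 7.95 in PiZ (-0.21 ± 0.41), and Ppp1r15a from 2.68 to 3.08, against 2.58 to 3.26 in PiZ (-0.21 ± 0.36). Chac1 ranged from 1.01 to 2.35 in PiZ p50KO, against 0.59 to 2.66 in PiZ (0.02 ± 0.42).

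Across the pathway lists, read beside the 21.6% of all genes that fell, 17 of 37 ATF4 and CHOP targets fell in PiZ p50KO and 0 rose, with Slc7a11 at -3.43 ± 0.89, Asns at -3.20 ± 0.85 and Tnfrsf10b at -2.73 ± 0.67 on the log2 scale. Of the eIF2 control genes 4 of 18 fell, with Impact at -1.29 ± 0.15, Eif2ak3, which encodes PERK, at -0.97 ± 0.26 and the adaptor Nck1 at -0.58 ± 0.20. Of the IRE1 and ATF6 arm genes 3 of 16 fell: Dnajb9 (-1.08 ± 0.34), Manf (-0.81 ± 0.21) and Pdia6 (-0.54 ± 0.16). Of the other bZIP factors 6 of 32 fell and 1 rose, with Maff at -1.75 ± 0.59, Batf at -1.51 ± 0.46 and Jund at -1.12 ± 0.34. The shares of these last 3 lists that fell were near the share of all genes. With libraries shifted to the same median, 10 ATF4 and CHOP targets fell and 4 rose, and 0 of the IRE1 and ATF6 arm genes were called. With WT PBS 2 kept, where 2.96% of all genes fell, 3 ATF4 and CHOP targets, 1 eIF2 control gene, 0 IRE1 and ATF6 arm genes and 1 other bZIP factor fell. Without WT TNFa 4 and PiZ p50KO 1 and 2 these counts were 8, 1, 1 and 2. No share of all genes is set beside them, so a loss particular to the lists cannot be read from these counts. Single libraries also moved them: the eIF2 control genes that fell numbered 2 without PiZ p50KO 1 or 2 or PiZ 1, 2 or 3, the IRE1 and ATF6 arm genes 1 without PiZ p50KO 1 or PiZ 3 and 7 without PiZ 4, and the other bZIP factors 2 without PiZ p50KO 1 and 3 without PiZ 2 or 3. The calls over all genes moved too. Higher and lower together, they numbered 2197 without PiZ p50KO 1, the fewest, and 3770 without PiZ 4, the most. Macrophage genes summed to 304 to 579 CPM in PiZ p50KO, against 732 to 1033 CPM in PiZ, and stellate genes to 103 to 201 CPM, against 348 to 647 CPM in PiZ. Cholangiocyte genes summed to 28.4 to 73.6 CPM in PiZ p50KO, against 82.4 to 124 CPM in PiZ. The part of these markers in the results was not tested. The 6 pancreatic acinar genes summed to 813 CPM in PiZ p50KO 4, the PiZ p50KO library highest in Nupr1 (1.13), and to 18.7 to 107 CPM in the other 4, against at most 71.9 CPM in PiZ.

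In PiZ p50KO against WT PBS, 2 of 10 regulators rose and none fell, where 10.5% of genes rose and 1.14% fell. They were Atf5 (0.71 ± 0.22, SE, adjusted p = 0.0414) and Nupr1 (2.08 ± 0.67, adjusted p = 0.0479), each with overlapping groups. With WT PBS 2 kept, with libraries shifted to the same median, with no filter, and in a fit of only these 2 groups, neither gene was called. Ddit3 (0.33 ± 0.26), Trib3 (0.47 ± 0.64), Cebpg (0.20 ± 0.13) and Atf3 (-0.83 ± 0.90) did not pass the test. Atf3 was 0.14 without WT PBS 3. Both calls also rested on single libraries: Atf5 lost its call without PiZ p50KO 2, 4 or 5 or WT PBS 3, 4 or 6, at 0.53 to 0.75, and Nupr1 without PiZ p50KO 3, 4 or 5 or WT PBS 4, 5 or 6, at 1.55 to 2.12. Macrophage genes summed to 304 to 579 CPM in PiZ p50KO, against 194 to 244 CPM in WT PBS, stellate genes to 103 to 201 CPM, against 72.2 to 102 CPM in WT PBS, and cholangiocyte genes to 28.4 to 73.6 CPM, against 23.3 to 26.9 CPM in WT PBS. These sums did not overlap between the groups, though the stellate sums came close, at 102.98 CPM in PiZ p50KO against 101.66 CPM in WT PBS. In the macrophage list Lyz2 did not overlap (45.5 to 223 CPM in PiZ p50KO, against 25.3 to 33.8 CPM in WT PBS). Cd68 did not overlap either, whereas genes such as Adgre1 and Cd5l did. The part of these markers in the results was not tested.

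In WT TNFa against WT PBS, 2 of 10 regulators rose and none fell, where 7.63% of genes rose and 4.05% fell. Both were C/EBP factors, Cebpb and Cebpg. The median log2 fold change of the members was 0.50, against -0.02 over all genes. With WT PBS 2 kept, the same 2 genes were called, where 2.18% of genes rose. The count rested on single libraries: it was 4 without WT TNFa 4, when Atf4 and Nupr1 also passed, and 5 without WT PBS 3, when Ppp1r15a passed as well. It was 3 with libraries shifted to the same median, when Atf4 passed (0.41, adjusted p = 0.0347). All genes called, 1013 higher and 538 lower as deposited, numbered 2095 together without WT TNFa 4. This was the most with any 1 library left out, and the fewest was 1165.

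Cebpb ranged from 7.16 to 8.48 in WT TNFa with a median of 7.68, against 5.97, 7.25, 5.41, 5.84 and 6.09 in WT PBS 1, 3, 4, 5 and 6. WT PBS 3 was the 1 WT PBS library inside the TNFa range. Cebpb rose by 1.66 ± 0.39 on the log2 scale (SE, n = 6 and 5, adjusted p = 0.00687). Cebpg ranged from 4.96 to 5.55 in WT TNFa with a median of 5.28, against 4.46 to 5.01 in WT PBS, and rose by 0.53 ± 0.13 (SE, adjusted p = 0.00696). WT TNFa 4, the library with Nfkb1 far below the other TNFa libraries, was the lowest TNFa library in both genes.

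Atf4 ranged from 5.60 to 6.43 in WT TNFa with a median of 6.24, against 5.44 to 5.91 in WT PBS. The lowest value was again that of WT TNFa 4, and the other 5 lay above every WT PBS library. Its log2 fold change of 0.47 ± 0.16 (SE) missed the threshold (adjusted p = 0.0600), and it was 0.58 without WT TNFa 4 (adjusted p = 0.00794) and 0.53 without WT PBS 3 (adjusted p = 0.0493). The lowest value over the fits without 1 library was 0.41, without WT PBS 4. Nupr1 ranged from -1.37 to 2.10 in WT TNFa with a median of -0.67, against -4.32 to -1.10 in WT PBS, at 1.88 ± 0.64 (SE, adjusted p = 0.0642). WT TNFa 5 was the highest library, at 176 reads against 14 to 40 in the other TNFa libraries. It was also the library in which the 6 pancreatic acinar genes summed to 2739 CPM, against 17.4 to 201 CPM in the other TNFa libraries, and the part of this in its Nupr1 level was not tested. Without WT TNFa 4 the fold change was 2.09 (adjusted p = 0.0358). Over the fits without 1 library it ran from 1.34, without WT PBS 5, to 2.15, without WT PBS 3.

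Ppp1r15a ranged from 2.90 to 4.16 in WT TNFa with a median of 3.69, against 2.80, 4.77, 2.82, 1.99 and 2.03 in WT PBS 1, 3, 4, 5 and 6. The difference of 0.78 ± 0.34 (SE, adjusted p = 0.173) became 1.25 without WT PBS 3 (adjusted p = 0.000691) and 0.56 without WT PBS 5. Atf3 ranged from -0.12 to 3.10 in WT TNFa with a median of 2.39, against -0.97 to 5.29 in WT PBS, at 0.64 ± 0.87 (SE, adjusted p = 0.767). The lowest TNFa value was in WT TNFa 4 and the highest WT PBS value in WT PBS 3. Without both libraries, an alternative chosen after seeing the data, Atf3 was 2.05 higher after TNFa. Leaving out these opposite extremes could only raise the difference, so that fit is no test of Atf3.

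The 4 other members did not pass the test after TNFa. Ddit3 ranged from 0.10 to 1.40 in WT TNFa with a median of 1.01, against 0.67 to 1.49 in WT PBS (-0.21 ± 0.25, SE). Trib3 ranged from -0.10 to 2.82 with a median of 1.12, against 0.21 to 2.84 in WT PBS (-0.59 ± 0.62), and Chac1 from 0.86 to 3.25 with a median of 1.58, against 1.19 to 2.20 in WT PBS (-0.02 ± 0.40). The highest TNFa values of both Trib3 and Chac1 were those of WT TNFa 4. Atf5 ranged from 7.65 to 8.20 with a median of 7.90, against 6.92 to 8.07 in WT PBS (0.24 ± 0.21).

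Of the pathway lists, the other bZIP factors held the most calls after TNFa: 12 of 32 rose and 2 fell, with Maff at 2.81 ± 0.56, Batf at 2.77 ± 0.44 and Cebpd at 2.20 ± 0.51. Of 37 ATF4 and CHOP targets 4 rose and 1 fell, shares near the 7.63% and 4.05% of all genes, with Slc7a11 at 4.03 ± 0.85, Tnfrsf10b at 3.28 ± 0.65 and the amino acid transporter Slc7a1 at 2.11 ± 0.41. With WT PBS 2 kept 0 of these targets were called, and 8 other bZIP factors rose. The targets called numbered 3 without WT TNFa 2, 3 or 5 or WT PBS 1, 5 or 6, and 7 without WT TNFa 4. All genes called, higher and lower together, numbered 1165 without WT TNFa 2 and 2095 without WT TNFa 4. Without WT TNFa 4 the eIF2 control genes called numbered 2, and without WT PBS 1 or 3 so did the IRE1 and ATF6 arm genes. The single called gene was Nck1 (0.93 ± 0.19) among 18 eIF2 control genes and Xbp1, the target of IRE1 (1.19 ± 0.21), among 16 IRE1 and ATF6 arm genes; Xbp1 also counts among the bZIP factors. Macrophage genes summed to 262 to 377 CPM in WT TNFa, against 194 to 244 CPM in WT PBS, and cholangiocyte genes to 27.8 to 49.5 CPM, against 23.3 to 26.9 CPM in WT PBS, both without overlap. Each cholangiocyte gene by itself overlapped between the groups. Sox9 was at 3.43 to 32.1 CPM in WT TNFa, against 2.16 to 7.50 CPM in WT PBS. Spp1 reached lower after TNFa, at 11.1 to 21.6 CPM, against 14.6 to 19.9 CPM in WT PBS, as did Epcam. Neutrophil genes summed to 7.44 to 114 CPM in WT TNFa, against 1.61 to 18.9 CPM in WT PBS, and the 6 acinar genes to 17.4 to 2739 CPM in WT TNFa, against 15.98 to 23.8 CPM in WT PBS. Their part in the results was not tested.

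PiZ and WT TNFa share the WT PBS libraries as controls, so the pair was also tested directly. In PiZ against WT TNFa, 4 of 10 regulators were higher and 1 was lower, where 47.7% of genes were higher and 8.11% lower. Trib3 (3.62 ± 0.62, SE, adjusted p = 5.52e-05) and Ddit3 (1.79 ± 0.25, adjusted p = 6.32e-06) were higher in PiZ with no overlap between the groups. Nupr1 (2.25 ± 0.64, adjusted p = 0.00559) and Atf5 (0.89 ± 0.21, adjusted p = 0.00138) were higher with overlap. Cebpb was lower in PiZ than in WT TNFa (-1.14 ± 0.39, adjusted p = 0.0179), and this call was lost without PiZ 3 (-0.97) or PiZ 4 (-0.80). Atf4 averaged 6.16 ± 0.34 in PiZ (SD, n = 5) and 6.15 ± 0.30 in WT TNFa (SD, n = 6), a difference of 0.01 ± 0.16 (SE, adjusted p = 0.978) where the all-gene median was 0.39.

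**Figure D3:**
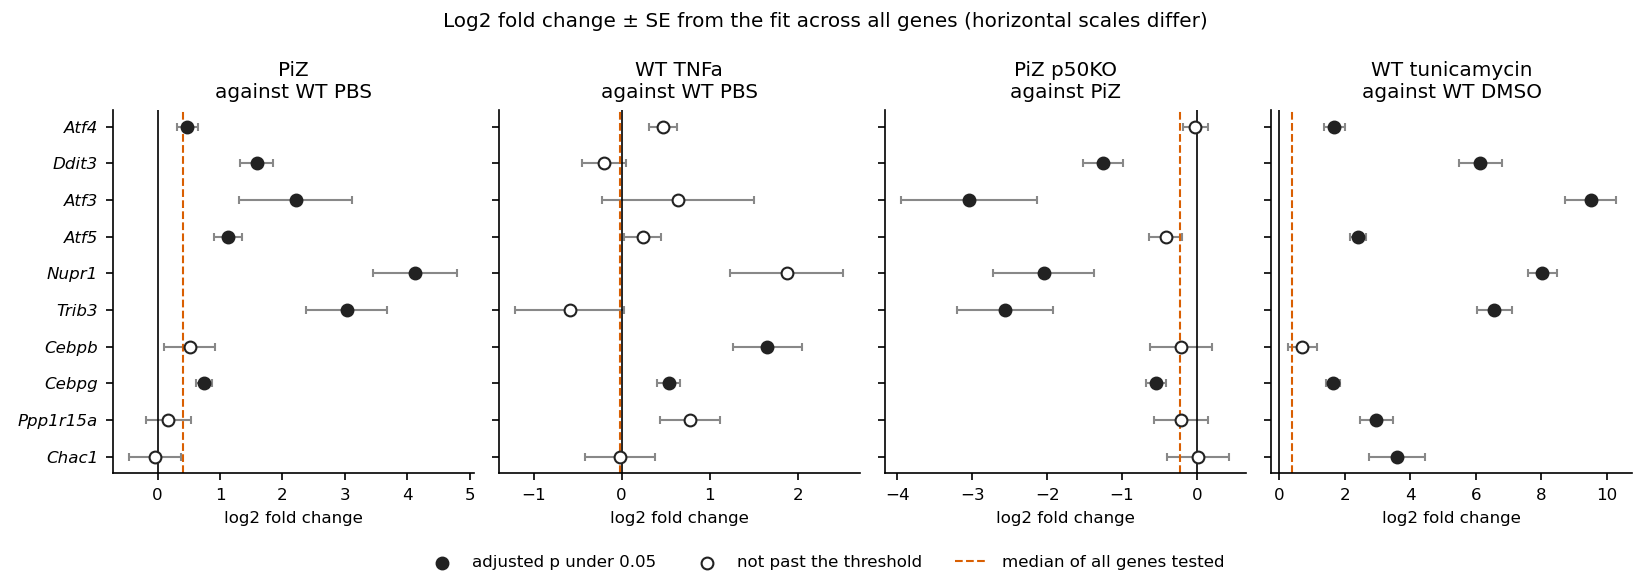
Log2 fold change ± SE (horizontal axes, scales differ) of the 10 regulators in the 4 comparisons named by the study's design; filled points have an adjusted p under 0.05 and the dashed line is the median of all genes tested. Tunicamycin shows 9 filled points, the lowest at 1.65 in Cebpg, and WT TNFa shows 2, Cebpb and Cebpg.

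In WT tunicamycin against WT DMSO, 9 of 10 regulators rose and none fell, where 45.3% of 13388 genes rose and 13.5% fell. The 9 stayed called without any 1 of the 12 libraries, and with libraries shifted to the same median, where all genes split into 3233 higher and 3913 lower, against 6067 and 1802 as deposited. The median log2 fold change of the members was 3.28, against 0.38 over all genes. Cebpb was the member that did not pass.

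Atf3 ranged from 5.70 to 11.30 in WT tunicamycin with a median of 10.15, against -0.36 to 1.20 in WT DMSO with a median of -0.09. Its log2 fold change of 9.50 ± 0.76 (SE, n = 6 each, adjusted p = 1.29e-06) was the greatest of the members, and its reads numbered 2482 to 109840 after tunicamycin, against 27 to 100 in WT DMSO. Ddit3 ranged from 5.22 to 9.99 with a median of 9.09, against 2.04 to 2.85 in WT DMSO with a median of 2.46, and rose by 6.14 ± 0.65 (SE, adjusted p = 1.06e-05). Even the lowest tunicamycin library lay above every DMSO library in both genes.

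Nupr1 ranged from 5.88 to 8.41 in WT tunicamycin with a median of 8.01, against -1.59 to 0.10 in WT DMSO with a median of -0.17. It rose by 8.02 ± 0.44 on the log2 scale (SE, adjusted p = 6.78e-08). Trib3 ranged from 5.36 to 8.92 with a median of 8.57, against 0.52 to 2.22 in WT DMSO with a median of 1.28, and rose by 6.56 ± 0.54 (SE, adjusted p = 1.32e-06). Neither gene overlapped between the groups.

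The factors with high levels in WT DMSO changed by smaller factors. Atf5 ranged from 9.85 to 11.01 in WT tunicamycin with a median of 10.47, against 7.52 to 8.48 in WT DMSO with a median of 8.15, and rose by 2.41 ± 0.24 (SE, adjusted p = 6.56e-06). Atf4 ranged from 6.72 to 9.0 with a median of 8.20, against 6.19 to 6.70 in WT DMSO with a median of 6.41, and rose by 1.69 ± 0.31 (SE, adjusted p = 0.000540). Its lowest tunicamycin value was only just above the highest DMSO value. Cebpg ranged from 5.83 to 7.22 with a median of 6.94, against 4.90 to 5.37 in WT DMSO with a median of 5.17, and rose by 1.65 ± 0.21 (SE, adjusted p = 4.15e-05).

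Cebpb ranged from 4.89 to 6.63 in WT tunicamycin with a median of 5.84, against 3.12 to 5.83 in WT DMSO with a median of 5.33. The groups overlapped, and the difference of 0.70 ± 0.44 (SE, adjusted p = 0.185) was 0.31 without WT DMSO 2, the lowest DMSO library. Ppp1r15a ranged from 3.68 to 7.72 in WT tunicamycin with a median of 6.20, against 2.81 to 3.35 in WT DMSO with a median of 3.07, and rose by 2.97 ± 0.50 (SE, adjusted p = 0.000291). Chac1 ranged from 0.14 to 6.41 with a median of 5.12, against -0.19 to 1.44 in WT DMSO with a median of 0.82. It rose by 3.60 ± 0.84 (SE, adjusted p = 0.00260), although 1 tunicamycin library lay inside the DMSO range.

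**Figure D4:**
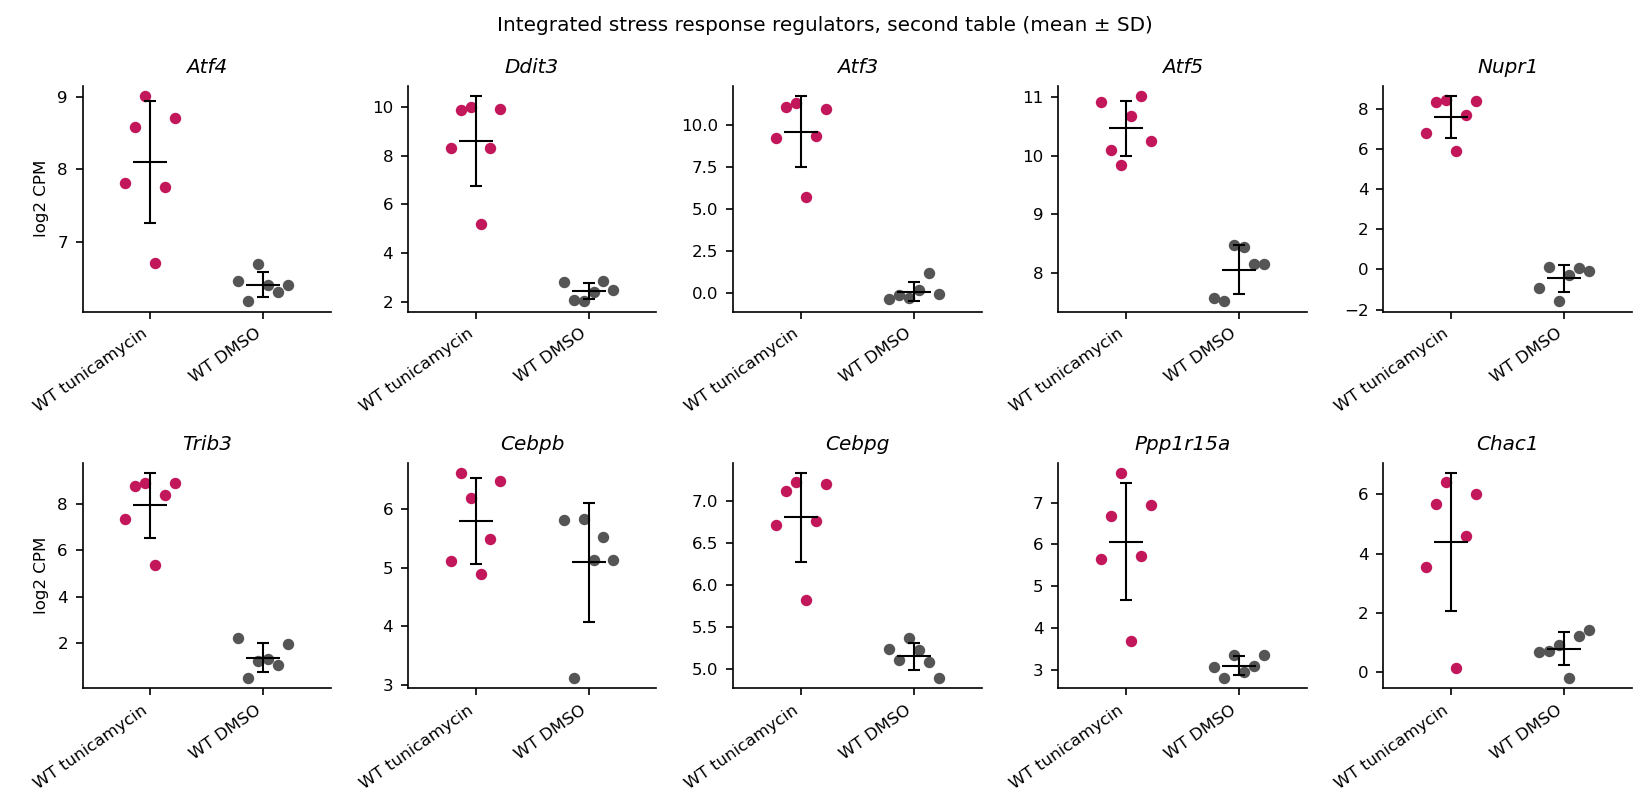
Deposited log2 CPM (vertical axes, scales differ) of the 10 regulators in each of the 6 WT tunicamycin and 6 WT DMSO libraries, with mean ± SD as black bars. The groups overlap in Cebpb and in Chac1, where 1 tunicamycin library is at 0.14.

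The tunicamycin libraries differed widely among themselves. In 3 of them (tunicamycin 5 and 6 and 1 library with no number) Atf3 was at 11.06, 11.30 and 10.94 and Ddit3 at 9.86, 9.99 and 9.89. In another 2 (tunicamycin 1 and 1 with no number) Atf3 was at 9.21 and 9.37 and Ddit3 at 8.32 and 8.30. The last library, also without a number, had Atf3 at 5.70, Ddit3 at 5.22 and Chac1 at 0.14. The same 3 levels were seen in Atf4, at 8.59, 9.0 and 8.71, then 7.81 and 7.76, then 6.72, and in Ppp1r15a, at 6.67, 7.72 and 6.95, then 5.66 and 5.73, then 3.68. Atf5 did not follow these levels: it was at 10.10, 9.85 and 10.26 in the 3 libraries with the most Atf3, at 10.91 and 11.01 in the next 2 and at 10.68 in the last. These sets of libraries were named after their values were seen and are no groups of the study.

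Alb moved with these levels. It was at 14.55, 14.09 and 14.41 in the 3 libraries with the most Atf3, at 15.21 and 15.33 in the next 2, and at 15.63 in the last, against 16.005 to 16.44 in WT DMSO. The 7 hepatocyte genes in the table summed to 29144 to 75276 CPM in WT tunicamycin, against 92662 to 123794 CPM in WT DMSO. Of that sum Alb made 17412 to 50617 CPM, against 65761 to 88604 CPM in WT DMSO. Alb, Ttr and Apoa1 were lower without overlap, whereas the groups overlapped in Apob, Cps1, Fgb and Hnf4a. Hnf4a lay toward the higher side, at 761 to 906 CPM after tunicamycin, against 511 to 795 CPM in WT DMSO. The macrophage sum was 211 to 299.9 CPM in WT tunicamycin, against 224 to 801 CPM in WT DMSO, and the acinar sum 10.6 to 809 CPM in WT tunicamycin, against 9.96 to 26.8 CPM in WT DMSO. The defining markers Alb and Adgre1 had reads in all 12 libraries, and their part in the results was not tested.

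**Figure D5:**
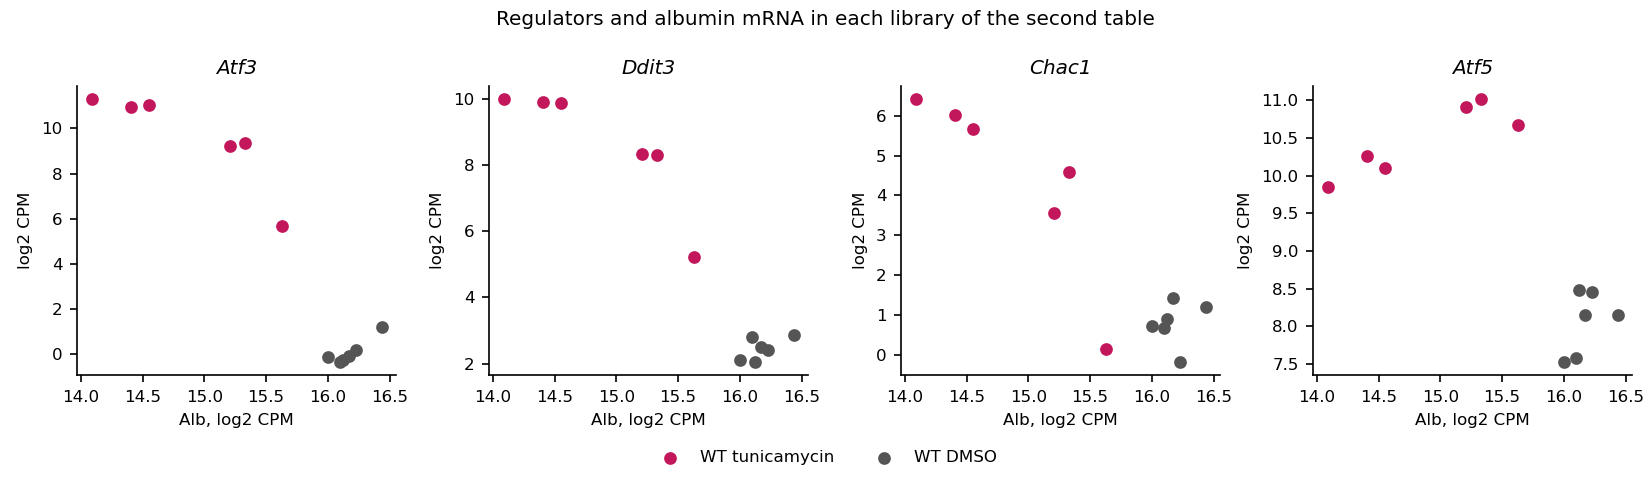
Levels of Atf3, Ddit3, Chac1 and Atf5 (vertical axes, log2 CPM, scales differ) against Alb (horizontal axis, log2 CPM) in the 12 libraries of the second table. Among the tunicamycin libraries the first 3 genes are highest where Alb is lowest, from 14.09 to 14.55, while Atf5 is lower there than in the libraries with Alb at 15.21 or more.

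After tunicamycin, beside the 45.3% of all genes that rose, 30 of 35 tested ATF4 and CHOP targets rose and 0 fell, led by Psat1 of serine synthesis (7.61 ± 0.34), the mitochondrial folate enzyme Aldh1l2 (7.57 ± 0.83) and Slc7a11 (6.89 ± 0.94). Of 18 eIF2 control genes, 12 rose and 0 fell, with Dnajc3 at 3.27 ± 0.17, Eif2ak3 at 2.21 ± 0.37 and Eif2s1, which encodes eIF2 alpha, at 1.70 ± 0.22. Of 16 IRE1 and ATF6 arm genes, 15 rose, with Derl3 at 7.55 ± 0.47, Creld2 at 5.54 ± 0.50 and Sdf2l1 at 4.17 ± 0.42. Of 29 other bZIP factors, 17 rose and 3 fell, with Mafk at 2.80 ± 0.47, Nfil3 at 2.45 ± 0.41 and Creb3l2 at 2.26 ± 0.38. With libraries shifted to the same median the counts higher and lower were 28 and 1, 10 and 2, 14 and 0, and 10 and 4 for these 4 lists.

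Set side by side without a test, since the tables are different batches, the order of the members by log2 fold change differed between PiZ and tunicamycin. In PiZ it ran Nupr1, Trib3, Atf3, Ddit3, Atf5, Cebpg, Cebpb, Atf4, Ppp1r15a and Chac1. After tunicamycin it ran Atf3, Nupr1, Trib3, Ddit3, Chac1, Ppp1r15a, Atf5, Atf4, Cebpg and Cebpb. Chac1 was at -0.04 ± 0.42 in PiZ and at 3.60 ± 0.84 after tunicamycin, and Ppp1r15a at 0.17 ± 0.36 in PiZ and at 2.97 ± 0.50 after tunicamycin (SE).

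How the members varied together was described over all libraries of a table, which differ in group, so these correlations have no p. Over the 21 libraries of the first table, Ddit3 varied most like Trib3 (Pearson r = 0.835) and Atf5 (0.777) among the members, and hardly like Atf4 (0.258). Atf4 had r of 0.617 with Cebpg and 0.605 with Cebpb, and 0.202 with Trib3. Over the 12 libraries of the second table, where the groups are far apart, Atf4 had r of 0.964 with Ddit3, 0.937 with Trib3 and 0.995 with Ppp1r15a. The genes outside the list most like Ddit3 in the first table were Tmem164 (0.944), Rragd (0.936) and Stom (0.936), and those most like Trib3 were Hexa (0.949), Cdc25a (0.942) and Psmd5 (0.938). Among those most like Atf4 were Id3 (0.887) and Atxn2l (0.882), and those most like Atf3 were Jun (0.895), Efhd2 (0.890) and Rasgef1b (0.881). In the second table they were Atxn2l (0.996), Magoh (0.996) and Osbp (0.994) for Atf4, and Praf2 (0.996), Ccdc127 (0.996) and Gadd45a (0.996) for Ddit3. They were Srp54a (0.992), Sar1a (0.991) and Bhlha15 (0.991) for Trib3, and Praf2 (0.995) and Dph3 (0.994) were among them for Atf3.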

How the data were processed

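The deposited values are log2 CPM, made by the authors; per the submitters' processing notes the tools include STAR, Subread featureCounts and edgeR, with the build GRCm38. Of the 55774 lines in either table, 287 repeat an ID, which leaves 55487. Whole reads were recovered from the log2 values to give depth (tolerance 0.1 read). The values carry a small prior count, so fold changes of rare genes depend on it. Groups came from the sample titles; 3 tunicamycin columns match no single title and are named by group. Genes were kept where they exceeded 1 CPM in 5 or more libraries (first table) or in 6 or more (second), and fitted with limma 3.58.1 (R 4.3.3; lmFit, eBayes with trend, two-sided, Benjamini-Hochberg, threshold 0.05), all libraries of a table in 1 fit, WT PBS 2 left out. Replicate numbers were not shown to pair libraries: correlations of same-numbered deviations were -0.23 to 0.56, the highest for number 4 in PiZ against WT PBS. Named are all members, up to 3 called genes per list with the greatest change, up to 3 genes most like 4 members (some are not reported here), Nfkb1 and Alb; other values of single libraries were chosen after they were seen. The members and lists were chosen with earlier results of these data known. Alternatives were scaling, filters, pseudocount, voom, robust eBayes, a replicate block, and left-out libraries. Sequences are RefSeq's, positions GENCODE M21's. Promoter windows were matched by symbol for 10 of 10 members.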

Additional observations from a re-analysis of the deposited data

Results flagged for a closer look

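Of 60 combinations of member and group, 9 had a library whose gap to its nearest neighbour was too large a part of the group's range by Dixon's test; chance alone gives this in about 1 in 20. After tunicamycin, the same library with no number was far below the others in Ddit3 (5.22, nearest 8.30), Atf3 (5.70, nearest 9.21) and Cebpg (5.83, nearest 6.71). It was also the tunicamycin library with the highest Alb, 15.63. In the DMSO group, WT DMSO 5 was far above the others in Atf3 (1.20, nearest 0.20) and WT DMSO 2 far below them in Cebpb (3.12, nearest 5.13). After TNFa, WT TNFa 4 was far below in Atf3 (-0.12, nearest 1.93) and WT TNFa 5 far above in Nupr1 (2.10, nearest -0.19). In PiZ, PiZ 4 was far below in Ppp1r15a (2.58, nearest 3.07). In PiZ p50KO, PiZ p50KO 5 was far above in Ddit3 (2.21, nearest 1.29). The cause of each was not tested.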

How the results depend on the processing

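Counts of members called that moved by over 1.5 times were these. With libraries shifted to the same median they were 4 in PiZ against WT PBS (7 as reported), 3 in PiZ p50KO against PiZ (5) and 0 in PiZ p50KO against WT PBS (2). With no filter they were 1 in WT TNFa against WT PBS (2), 3 in PiZ p50KO against PiZ and 0 in PiZ p50KO against WT PBS. The last count was also 0 with the libraries compared alone, with a replicate block or with WT PBS 2 kept, and 1 with quantile normalization, a filter at 4 CPM, log2(CPM + 1) or voom. With WT PBS 2 kept, PiZ p50KO against PiZ had 1. Without WT TNFa 4 and PiZ p50KO 1 and 2, it had 2 and WT TNFa against WT PBS had 4. Without WT PBS 3 and WT TNFa 4, chosen after seeing the data, WT TNFa against WT PBS had 6. Those libraries are the opposite extremes of Atf3, so leaving them out could only raise its difference. Leaving out 1 library at a time gave 5 to 8 in PiZ against WT PBS, 2 to 5 in WT TNFa against WT PBS, 3 to 6 in PiZ p50KO against PiZ, 0 to 2 in PiZ p50KO against WT PBS, 4 to 5 in PiZ against WT TNFa, and 9 after tunicamycin, which had 8 or 9 under every alternative run (8 with a filter at 4 CPM, where 9 members were tested). In these refits all genes called numbered 5947 to 7311 in PiZ against WT PBS and 1165 to 2095 in WT TNFa against WT PBS. They numbered 2197 to 3770 in PiZ p50KO against PiZ and 703 to 2113 in PiZ p50KO against WT PBS. The range was 6414 to 7605 in PiZ against WT TNFa and 6799 to 8703 after tunicamycin. The replicate block gave 6, 3, 4, 0, 5 and 9 members called in PiZ, WT TNFa, PiZ p50KO against PiZ, PiZ p50KO against WT PBS, PiZ against WT TNFa and tunicamycin. Replicate numbers are not shown to pair libraries. All genes called are not reported here for the block, filter, quantile, log2(CPM + 1) and voom fits. Nor are they for the libraries compared alone or for several libraries left out together. In all these fits a moved count of members cannot be told from a move over all genes. Besides Atf4 in PiZ, the members whose sign turned were ones that had not passed the test. In PiZ against WT PBS, Atf4 was -0.014 (shift), Ppp1r15a -0.32 (shift), -0.40 (quantile), -0.086 (WT PBS 2 kept) and -0.049 to 0.65 leaving out libraries, and Chac1 0.0091 (voom), 0.063 (without WT PBS 3 and WT TNFa 4) and -0.29 to 0.23. In PiZ p50KO against PiZ, Atf4 was 0.24 (shift), 0.16 (quantile) and -0.16 to 0.069, Cebpb 0.050 (shift) and -0.56 to 0.12, Ppp1r15a 0.051 (shift) and 0.12 (quantile), and Chac1 -0.0062 (log2(CPM + 1)), -0.0026 (voom) and -0.25 to 0.27. In WT TNFa against WT PBS, Chac1 was 0.012 (log2(CPM + 1)) and -0.33 to 0.15. In PiZ p50KO against WT PBS, Cebpg was -0.030 (shift), Ddit3 -0.096 (WT PBS 2 kept) and Atf3 0.21 (without WT TNFa 4 and PiZ p50KO 1 and 2), 0.14 (without WT PBS 3 and WT TNFa 4) and -1.42 to 0.14. The cause was not tested. Over the single members, 993 of 1121 values kept direction and side of the threshold. Depth limits Nupr1 most, at 2 reads in WT PBS 5.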
